A study of Mus musculus with 6 samples.

Results

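The adaptors, kinases, phosphatases and effectors that carry and restrain the signal of the B cell receptor (BCR) were followed in leukaemic mouse pre-B cells that had received Cre to delete the gene of a subunit of protein phosphatase 2A (PP2A). The 34 genes were chosen by name as members of this pathway, with earlier results of these data known. Shares of them that were called, set beside those of all genes, are therefore descriptive. Each gene was read from the probe set annotated to it alone. Of the 34, 33 were measured, each by a single probe set, among 19733 genes tested in all. Itpr1, a calcium channel of the endoplasmic reticulum, was not analysed here. By their textbook roles 20 members were put down as activating (19 measured), 10 as inhibitory, and 4 (Lat2, Grb2, Fgr and Prkcd), for which both roles are described, as dual.

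The study compared 2 groups of 3 arrays. The Cre group consisted of Ppp2r1a fl/fl mouse bone marrow pre-B cells that carried BCR-ABL1, the fusion kinase of Philadelphia chromosome-positive leukaemia, and that had then been transduced with Cre for deletion of PP2A. The EV group consisted of the same kind of cells transduced with an empty vector. The labels call the EV genotype wild type, although these cells carry the floxed alleles and BCR-ABL1 as well. Ppp2r1a encodes the scaffold subunit of PP2A. The sources used here do not give the strain and age of the mice, the time after transduction or any selection of transduced cells. None of the 6 arrays had Cre without floxed alleles, so effects of Cre and of the deletion cannot be told apart. The labels number the arrays as repeats without saying whether they came from separate cultures or mice, and the p-values therefore measure the spread between arrays, which may be technical.

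An engaged BCR or pre-BCR is phosphorylated by kinases of the Src family, and Syk then docks and phosphorylates linker proteins. Phospholipase C gamma, Vav exchange factors and PI3 kinase are recruited to these linkers, and they open the calcium and NFAT, the protein kinase C and NF-kB, and the RAS branches. Dok adaptors, the phosphatases SHP-1 and SHIP-1, Cbl ubiquitin ligases and the kinase Csk hold the signal back. In pre-B cell leukaemia, BCR-ABL1 is known to stand in for parts of this signal, and pre-B cells tolerate neither too little nor too much of it.

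Levels are log2 values after RMA, a procedure that corrects background, sets the arrays to one distribution and summarises the probes of a set. Changes are Cre minus EV on that log2 scale, with the standard error (SE) of a limma fit over all genes, and a gene was said to rise or fall at a Benjamini-Hochberg adjusted p below 0.05 over all 19733 genes. As a check of the labels, Ppp2r1a read 7.12, 6.98 and 6.92 in the Cre arrays, against 9.06, 9.05 and 9.06 in the EV arrays. Its transcript signal was thus 4.15-fold lower but still above the array medians in the Cre cells, and no protein was measured. Of the B lineage markers, 7 of 8 were measured, and their mean level lay between 11.08 and 11.10 in the Cre arrays and between 11.07 and 11.12 in the EV arrays. None of the 7 passed in limma and 2 had an unadjusted p below 0.05: Ebf1 differed by -0.24 (SE 0.06), lower in every Cre array, and Cd79a by 0.14 (SE 0.06), higher in every Cre array. Pax5 was also higher in every Cre array, by 0.08 (SE 0.06). None of 6 T cell, 4 NK cell, 9 myeloid, 3 erythroid or megakaryocyte and 4 stroma or endothelium markers passed the test in limma, while at an unadjusted p below 0.05, which 16.1% of all genes reached, the counts were 0, 0, 2, 0 and 1. The stroma marker Cxcl12 differed by -0.21 (SE 0.07) and was lower in every Cre array. The T cell markers had mean levels between 4.39 and 4.59 in the Cre arrays and between 4.39 and 4.61 in the EV arrays, and the myeloid markers between 3.96 and 3.99 in the Cre arrays and between 3.88 and 3.91 in the EV arrays, all below the array medians of 5.22 to 5.27. The myeloid mean was thus slightly higher in each Cre array than in any EV array, and the part of these markers in the results below was not tested. Values come from bulk cells, in which fewer cells of a kind and less RNA per cell cannot be told apart.

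Of the 33 members, 5 rose in the Cre cells and 0 fell, while 2.14% of all genes fell. The 5 were Bank1, Pik3ap1, Plcg2 and Vav2, which are activating, and Dok3, which is inhibitory. They made up 15.2% of the members, against 3.49% of all genes called in either direction and 1.35% of all genes that rose. All members but Nfatc2 and Fgr had a mean level above the median gene, and of the 9857 genes above the median 5.62% were called and 2.19% rose. The arrays of the 2 groups did not overlap for 8 members (24.2%), against 22.5% of all genes and 32.9% of the genes above the median level. In 5 of them Cre was higher (10.3% of all genes) and in 3 lower (12.2%). By that measure the share among the members was near that of all genes.

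The sequences just before the starts of the 5 genes that rose are shown here, since these members moved in the same direction. Each is the stretch of 250 bases before the start in the RefSeq table of build GRCm38.p6, read 5′ to 3′ on the strand of the gene. The Bank1 window is chr3:136326067-136326316 on the minus strand, and the Pik3ap1 window is chr19:41385103-41385352 on the minus strand. The Dok3 window is chr13:55528539-55528788 on the minus strand, the Plcg2 window is chr8:117498025-117498274 on the plus strand, and the Vav2 window is chr2:27427609-27427858 on the minus strand. Capitals mark matches, on either strand, to the letters ATGCAAAT (octamer), GAGGAA (PU.1 box), CAGGTG (E-box of E2A proteins), CCCNNGGG (EBF1 core), GTAAACA (FOXO) or TGANTCA (AP-1).
Bank1: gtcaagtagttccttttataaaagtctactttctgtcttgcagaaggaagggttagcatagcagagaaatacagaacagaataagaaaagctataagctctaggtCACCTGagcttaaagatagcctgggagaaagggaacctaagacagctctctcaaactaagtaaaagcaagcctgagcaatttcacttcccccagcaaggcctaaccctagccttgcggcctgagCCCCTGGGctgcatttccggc
Pik3ap1: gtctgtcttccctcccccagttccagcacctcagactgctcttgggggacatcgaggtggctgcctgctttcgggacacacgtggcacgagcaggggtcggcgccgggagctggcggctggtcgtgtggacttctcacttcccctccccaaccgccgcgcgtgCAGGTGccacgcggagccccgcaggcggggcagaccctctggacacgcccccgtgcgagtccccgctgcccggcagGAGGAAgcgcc
Dok3: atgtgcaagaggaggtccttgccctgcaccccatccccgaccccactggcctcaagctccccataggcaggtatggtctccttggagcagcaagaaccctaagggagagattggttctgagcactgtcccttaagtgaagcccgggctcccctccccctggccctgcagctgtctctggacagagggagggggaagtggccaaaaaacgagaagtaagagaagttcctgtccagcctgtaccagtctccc
Plcg2: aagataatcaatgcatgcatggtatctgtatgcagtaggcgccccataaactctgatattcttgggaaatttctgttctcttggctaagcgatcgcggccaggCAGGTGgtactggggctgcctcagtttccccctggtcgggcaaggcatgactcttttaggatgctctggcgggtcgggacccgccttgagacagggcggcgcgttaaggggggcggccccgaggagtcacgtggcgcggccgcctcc
Vav2: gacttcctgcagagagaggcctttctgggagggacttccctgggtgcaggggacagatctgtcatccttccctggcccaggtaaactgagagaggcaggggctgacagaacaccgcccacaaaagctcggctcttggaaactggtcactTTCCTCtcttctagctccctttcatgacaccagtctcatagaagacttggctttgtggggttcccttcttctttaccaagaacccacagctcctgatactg

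The letters CAGGTG or their reverse complement CACCTG were found before Bank1, Pik3ap1 and Plcg2, with the first matched base 145, 87 and 147 bases before the start. Of 32851 windows of this length over all genes, 17.2% held these letters. GAGGAA or its reverse complement TTCCTC was found before Pik3ap1 and Vav2, and in 23.3% of all windows. CCCNNGGG, which reads the same on both strands, was found before Bank1 and in 11.8% of all windows. None of the searched letters was in the Dok3 window, and ATGCAAAT (1.6% of all windows), GTAAACA (3.17%) and TGANTCA (6.75%) were in none of the 5. The marked matches do not overlap one another. Over the 25 members that have a window in the table, CAGGTG was found in 9 and GAGGAA in 11, against 19.4% and 25.9% of the 27025 genes with a window. CCCNNGGG was found in 5 of the 25 (13.4% of genes), TGANTCA in 2 (7.82%), ATGCAAAT in 1 (1.81%) and GTAAACA in 1 (3.54%). These are matches of letters, not measured binding sites, and the counts over the chosen members were not tested against those of all genes.

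Adaptors and scaffolds held the largest changes among the members. Bank1, a B cell scaffold that links Lyn to calcium release, read 7.54, 7.57 and 7.32 in the Cre arrays, against 6.61, 6.39 and 6.04 in the EV arrays. Every Cre array was above every EV array, and the EV arrays spread more widely (SD 0.29) than the Cre arrays (SD 0.13). The change was 1.13 (SE 0.14; 95% interval 0.80 to 1.47; limma adjusted p = 0.00585), and leaving out EV replicate 3, the lowest array, gave 0.98. Pik3ap1, also called BCAP, an adaptor whose phosphorylated tyrosines recruit PI3 kinase, read 8.50, 8.40 and 8.66 in the Cre arrays, against 7.74, 7.83 and 7.74 in the EV arrays. The groups were well apart, with a change of 0.75 (SE 0.08; 95% interval 0.56 to 0.94; limma adjusted p = 0.00324). Bank1 and Pik3ap1 passed whichever of the 6 arrays was left out, at adjusted p-values of at most 0.0314 and 0.0198.

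The other adaptors that pass the signal on lay close to their EV levels. Stap1, an adaptor bound by the kinase Tec, differed by -0.08 (SE 0.06). Dapp1, also known as Bam32, which binds the lipid products of PI3 kinase, differed by -0.07 (SE 0.10), and Sh3bp2, a binding partner of Syk and Vav, by -0.07 (SE 0.08). Shc1, which couples receptors to RAS, differed by -0.01 (SE 0.10). None of these 4 passed. The widest of their 95% intervals, that of Shc1, ran from -0.25 to 0.23, and that of Dapp1 reached lower, from -0.307 to 0.165. The dual adaptor Lat2, also known as NTAL, a membrane linker related to Lat, read 5.82, 6.13 and 5.76 in the Cre arrays, against 5.42, 5.80 and 5.53 in the EV arrays. The groups of Lat2 overlapped through EV replicate 2, and the difference of 0.32 (SE 0.13) did not pass (limma adjusted p = 0.289). Grb2, which binds SOS and in B cells also restrains calcium, differed by 0.06 (SE 0.08).

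**Figure D1:**
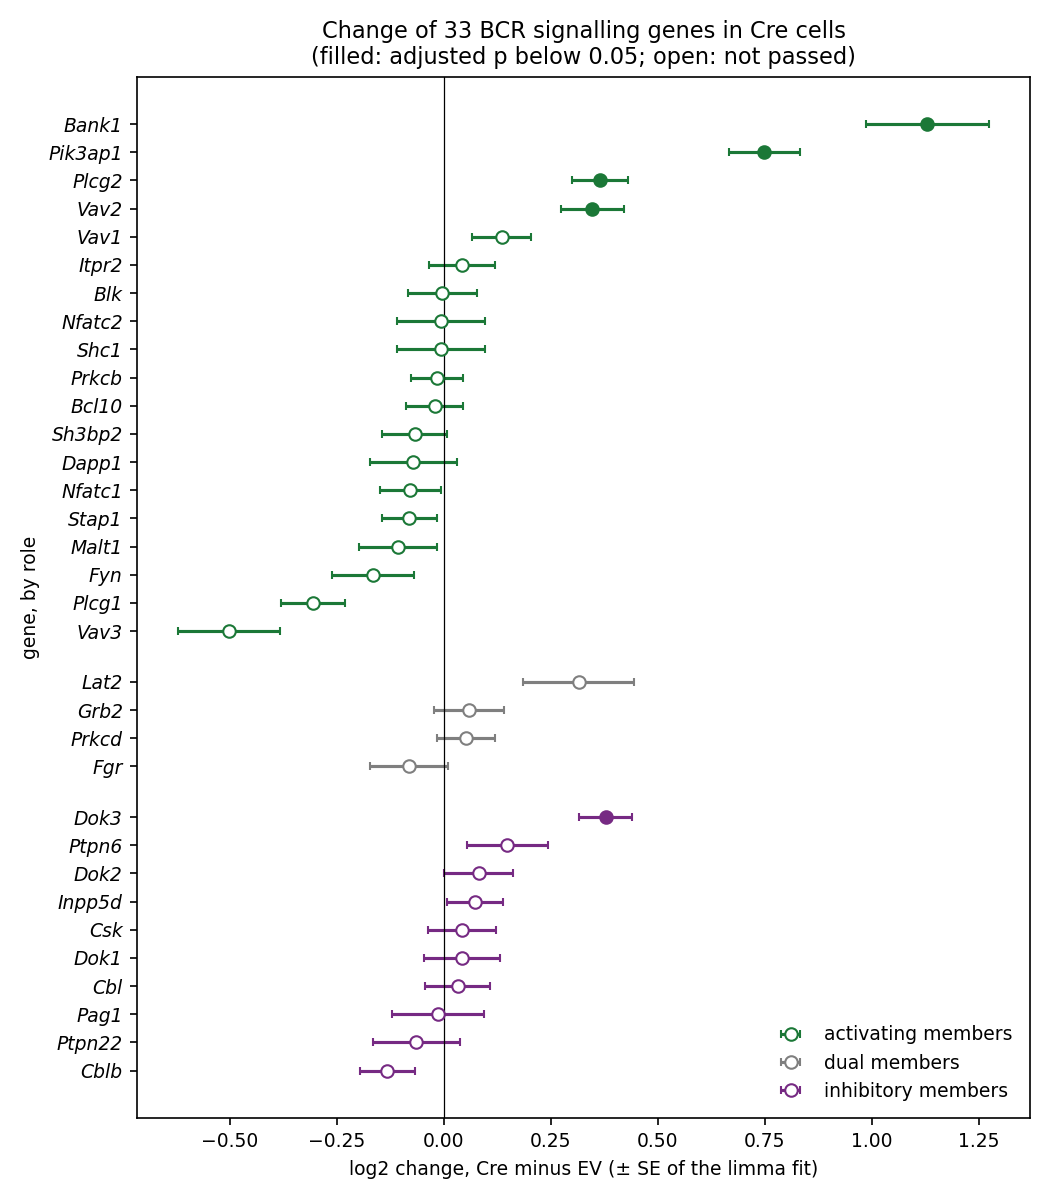
Changes of the 33 measured members (x axis: log2 change, Cre minus EV, with the SE of the limma fit; y axis: genes, grouped as activating, dual and inhibitory). Filled points passed the adjusted p threshold: Bank1, Pik3ap1, Plcg2 and Vav2 among the activating members and Dok3 among the inhibitory ones, while Vav3 lies farthest to the left at -0.50 without passing.

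The Src-family kinases, which start the cascade, did not pass. Blk, the B lineage member of the family, differed by -0.003 (SE 0.08), Fyn by -0.17 (SE 0.10) and Fgr, mainly known from myeloid cells, by -0.08 (SE 0.09). Fyn read 8.39, 8.08 and 8.19 in the Cre arrays, against 8.39, 8.48 and 8.29 in the EV arrays, so that the groups overlapped. Fgr was dim, at 4.24, 3.99 and 4.10 in the Cre arrays, against 4.25, 4.06 and 4.27 in the EV arrays, all below the array medians. A change of a dim gene is understated on this scale.

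Of the 2 genes of phospholipase C gamma, the enzyme that cleaves membrane phosphoinositide into inositol trisphosphate and diacylglycerol, 1 rose and 1 did not pass. Plcg2, the form on which B cells mainly depend, read 8.004, 7.987 and 8.036 in the Cre arrays, against 7.724, 7.618 and 7.588 in the EV arrays. It rose by 0.37 (SE 0.07; 95% interval 0.21 to 0.52; limma adjusted p = 0.0260), with every Cre array above every EV array. Plcg1, the widely expressed form, read 7.71, 7.58 and 7.50 in the Cre arrays, against 7.94, 7.89 and 7.87 in the EV arrays. Every Cre array was below every EV array, but the difference of -0.31 (SE 0.07) did not pass (limma adjusted p = 0.0808). The call of Plcg2 was kept without EV replicate 1 and lost when any of the other 5 arrays was left out, where the adjusted p reached 0.0944.

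Of the 3 Vav exchange factors, which activate RAC GTPases, 1 rose and 2 did not pass. Vav2 read 6.68, 6.79 and 6.70 in the Cre arrays, against 6.40, 6.28 and 6.46 in the EV arrays, and the groups did not overlap. It rose by 0.35 (SE 0.07; 95% interval 0.18 to 0.52; limma adjusted p = 0.0485), close to the threshold, and it passed in 0 of the 6 fits on 5 arrays, where the adjusted p reached 0.161. Vav3 read 5.92, 5.98 and 5.72 in the Cre arrays, against 6.55, 6.14 and 6.43 in the EV arrays. Every Cre array was below every EV array, and the difference of -0.50 (SE 0.12) was the lowest of all members without passing (limma adjusted p = 0.0724). In the 6 fits on 5 arrays it ran from -0.62 to -0.42. Vav3 passed in 1 of them, without EV replicate 2, its lowest EV array (limma adjusted p = 0.0383). In the other 5 the limma adjusted p of Vav3 reached 0.196. Vav1, the form of blood cells, differed by 0.14 (SE 0.07) with overlapping groups and did not pass (limma adjusted p = 0.400).

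Whether members of a family changed unequally was tested on the difference of their log2 levels within each array, over 13 pairs of related members. Levels of different probe sets cannot be compared, so only the shift of such a difference between Cre and EV carries information. The difference Plcg2 minus Plcg1 was 0.30, 0.41 and 0.54 in the Cre arrays, against -0.22, -0.27 and -0.28 in the EV arrays, which makes a shift of 0.67. The difference Vav2 minus Vav3 was 0.76, 0.82 and 0.99 in the Cre arrays, against -0.14, 0.13 and 0.02 in the EV arrays, a shift of 0.85. For Vav1 minus Vav3 the shift was 0.64, and the groups were again apart. The groups did not overlap for 8 of the 13 pairs, and each of these 8 had the smallest p that the exact two-sided permutation test of 3 against 3 arrays allows (p = 0.1, 0.162 after adjustment over the 13 pairs). This design cannot reach a p below 0.05, so the unequal changes within the families are given as measured and did not pass a test of their own. Of all single genes 22.5% had groups that did not overlap, and no such share was taken over pairs of genes. The pairs share members, and several of the 8 hold Plcg2, Vav2 or Dok3, which were called on their own. The count of pairs is therefore not separate from those calls.

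**Figure D2:**
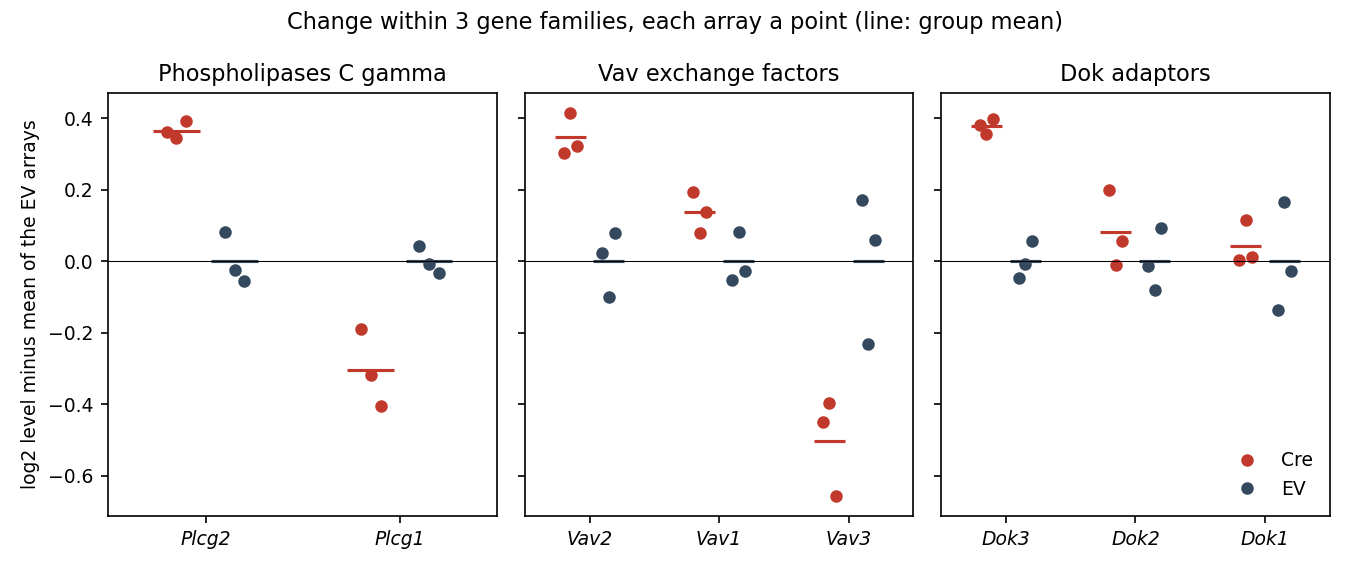
Change within the phospholipase C gamma, Vav and Dok families (y axis: log2 level of each array minus the mean of the EV arrays of that gene; points: Cre and EV arrays; lines: group means). The Cre arrays of Plcg2, Vav2 and Dok3 lie above their EV arrays and those of Plcg1 and Vav3 below, while Vav1, Dok2 and Dok1 overlap.

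Downstream of the phospholipases no measured member passed. In the calcium branch, Itpr2, a channel that releases calcium on inositol trisphosphate, read 8.84, 8.75 and 8.85 in the Cre arrays, against 8.86, 8.79 and 8.65 in the EV arrays, a difference of 0.04 (SE 0.08) with overlapping groups. The calcium-dependent transcription factors Nfatc1 and Nfatc2 differed by -0.08 (SE 0.07) and -0.01 (SE 0.10), and Nfatc2 was below the array medians in both groups. In the branch that leads to NF-kB, Prkcb, the protein kinase C form that B cells need for this step, read 8.80, 8.79 and 8.72 in the Cre arrays, against 8.80, 8.77 and 8.79 in the EV arrays. Its difference was -0.02 (SE 0.06), with a 95% interval from -0.16 to 0.13. Bcl10, an adaptor of the NF-kB branch, differed by -0.02 (SE 0.07) and Malt1, the protease bound to it, by -0.11 (SE 0.09). Prkcd, a form with a known part in B cell tolerance, differed by 0.05 (SE 0.07).

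Of the 10 inhibitory members, Dok3 passed. Dok3, an adaptor that brings SHIP-1 to the receptor and dampens calcium, read 7.320, 7.296 and 7.337 in the Cre arrays, against 6.891, 6.930 and 6.995 in the EV arrays. The arrays of each group lay close together and the groups were apart, with a rise of 0.38 (SE 0.06; 95% interval 0.23 to 0.52; limma adjusted p = 0.0181). That call was kept without EV replicate 3 and lost when any of the other 5 arrays was left out, where the adjusted p reached 0.0737. Dok1 and Dok2, related adaptors that restrain RAS, differed by 0.04 (SE 0.09) and 0.08 (SE 0.08) with overlapping groups. The shift of Dok3 against Dok1 within arrays was 0.34 and that against Dok2 0.30, both with groups apart and both at the smallest exact permutation p of 0.1.

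The other brakes did not pass. The phosphatase Ptpn6, which encodes SHP-1, read 8.43, 8.36 and 8.68 in the Cre arrays, against 8.27, 8.39 and 8.37 in the EV arrays, a difference of 0.15 (SE 0.10) with overlapping groups. Inpp5d, which encodes SHIP-1, the lipid phosphatase that removes the product of PI3 kinase, differed by 0.07 (SE 0.07), and Ptpn22, which acts on Src-family kinases, by -0.06 (SE 0.10). Of the ubiquitin ligases, Cblb read 7.98, 8.03 and 7.97 in the Cre arrays, against 8.12, 8.19 and 8.06 in the EV arrays. Every Cre array of Cblb was below every EV array, but the difference of -0.13 (SE 0.06) was small and did not pass (limma adjusted p = 0.383), and Cbl differed by 0.03 (SE 0.08). Csk, the kinase that shuts down Src-family kinases, differed by 0.04 (SE 0.08) and its membrane anchor Pag1 by -0.01 (SE 0.11).

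**Figure D3:**
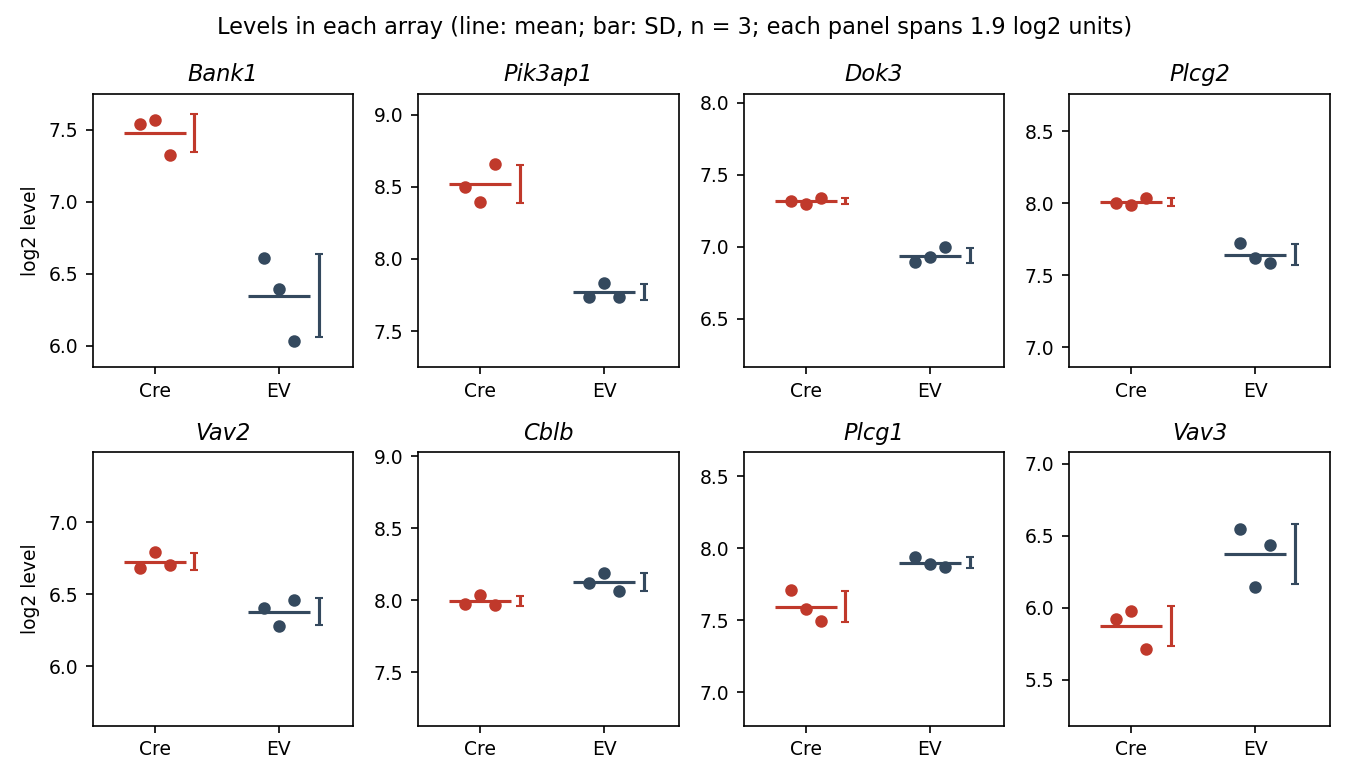
Levels of the 8 members whose Cre and EV arrays did not overlap (y axis: log2 level, each panel spanning the same number of log2 units; points: arrays; lines: means; bars: SD, n = 3). Bank1 and Pik3ap1 show the widest gaps between Cre and EV, and Cblb the narrowest, at -0.13.

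Set against each other, the activating and the inhibitory members had nearly the same median change. The median was -0.02 over the 19 activating members measured and 0.04 over the 10 inhibitory members, against -0.003 over all genes. Of the activating members 4 rose and 0 fell (21.1%, against 1.35% of all genes and 2.19% of those above the median level that rose), 6 had a positive and 13 a negative difference, and their mean of 0.07 had the opposite sign to their median. Of the inhibitory members 1 rose and 0 fell (10.0%, against the same shares), with 7 positive and 3 negative differences. The median deviation of the activating members from the EV mean was 0.01, -0.03 and -0.03 in the Cre arrays, against 0.01, 0.02 and -0.03 in the EV arrays, and that of the inhibitory members 0.04, 0.02 and 0.10 in the Cre arrays, against -0.04, 0.05 and -0.003 in the EV arrays. The activating median minus the inhibitory one was -0.06. Taken from the median deviations of single arrays, it was -0.023, -0.040 and -0.130 in Cre, against 0.046, -0.034 and -0.025 in EV, with overlapping groups. The SD of these values within groups, pooled, was 0.05. It describes single arrays and is not the spread of a difference between group means. The activating median was 0.01 without Cre replicate 2.

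The changes of the 19 activating members covered a wider range than those of the 10 inhibitory ones, but a range widens with the number of genes. The activating members ran from -0.50 in Vav3 to 1.13 in Bank1, and 6 of 19 were larger than 0.3 in size. The inhibitory members ran from -0.13 in Cblb to 0.38 in Dok3, with 1 of 10 larger than 0.3. Of all 33 members, 8 (24.2%) exceeded 0.3 in size, against 7.59% of all genes, and 20 (60.6%) stayed under 0.1, against 54.5% of all genes. Over the 28 members outside the threshold the median was -0.01. These spreads were not tested against each other.

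The rest of the pathway was read from a list of 90 further genes, also drawn up with earlier results known, of which 81 were measured. Of these, 6 rose and 2 fell (9.88%, against 3.49% of all genes and 5.62% of those above the median level), with a median change of 0.02. The arrays of the 2 groups did not overlap for 38 of them (46.9%, with Cre higher in 24 and lower in 14), against 22.5% of all genes and 32.9% of those above the median level, and all but 6 of the 81 were above it. The largest rise was that of Cd72, an inhibitory co-receptor that recruits SHP-1, with 7.03, 7.02 and 7.01 in the Cre arrays, against 5.99, 6.05 and 5.84 in the EV arrays (change 1.06, SE 0.07; limma adjusted p = 0.000313). It was the 1 of 9 inhibitory receptors that passed, and it did so whichever array was left out. None of 9 genes of the receptor complex and its co-receptors passed in limma, while at an unadjusted p below 0.05 the count was 3 of 9 (16.1% of all genes), and the groups did not overlap for 5 of the 9. Ighm, the heavy chain, read 5.64, 5.77 and 5.75 in the Cre arrays, against 6.43, 6.45 and 5.88 in the EV arrays, and differed by -0.53 (SE 0.15; limma adjusted p = 0.123). Ptprc, the receptor phosphatase CD45, differed by 0.24 (SE 0.06; limma adjusted p = 0.0910), with every Cre array above every EV array.

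Among 13 proximal kinases and linkers, 2 rose and 1 fell. Lcp2, which encodes the linker SLP-76, read 8.02, 7.82 and 8.04 in the Cre arrays, against 7.26, 7.37 and 7.30 in the EV arrays, a rise of 0.65 (SE 0.08; limma adjusted p = 0.00532). Lat, the membrane linker that SLP-76 works with in T cells, read 9.26, 9.15 and 9.29 in the Cre arrays, against 8.68, 8.72 and 8.83 in the EV arrays, a rise of 0.49 (SE 0.07; limma adjusted p = 0.0125). Both linkers are best known from T cells and mast cells, whereas the B cell linker Blnk differed by -0.12 (SE 0.07) and did not pass. The markers of T cells given above lay below the array medians in both groups except Thy1, whose single arrays reached 5.31 in Cre and 5.61 in EV. Gab1, a docking protein that amplifies PI3 kinase, fell to 4.89, 5.07 and 5.11 in the Cre arrays, against 5.99, 6.12 and 5.94 in the EV arrays (change -0.99, SE 0.08; limma adjusted p = 0.000911), and its Cre levels were below the array medians. Lcp2 and Gab1 passed whichever array was left out. Lat did so when Cre replicate 2 or EV replicate 3 was missing, and its adjusted p reached 0.0541 otherwise.

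In the RAS, RAC and ERK branch 2 of 9 genes measured rose, Rasgrp1 and Rasgrp3, both RAS exchange factors that diacylglycerol recruits. Rasgrp1 read 8.75, 8.79 and 8.90 in the Cre arrays, against 8.46, 8.44 and 8.43 in the EV arrays, a rise of 0.37 (SE 0.07; limma adjusted p = 0.0276). Rasgrp3 read 5.65, 5.36 and 5.81 in the Cre arrays, against 4.55, 5.05 and 4.94 in the EV arrays, where it was below the medians, and rose by 0.76 (SE 0.16; limma adjusted p = 0.0432). Dgka, a kinase that removes diacylglycerol, was the 1 gene of 12 in the calcium and NFAT branch that passed. It fell to 8.46, 8.25 and 8.28 in the Cre arrays, against 8.94, 8.84 and 8.73 in the EV arrays (change -0.51, SE 0.08, limma adjusted p = 0.0197). Sh2b3, the inhibitory adaptor also called LNK, rose by 0.37 (SE 0.06; limma adjusted p = 0.0219) as 1 of 11 further phosphatases and brakes. At an unadjusted p below 0.05 the count was 5 of these 11, against 16.1% of all genes. The groups did not overlap for 6 of the 11 (22.5% of all genes), with Cre higher in 4 and lower in 2. One of the 4 was Ubash3b, which differed by 0.51 (SE 0.11) and did not pass (limma adjusted p = 0.0504). On 5 arrays, Rasgrp1 and Sh2b3 passed in 0 of 6 fits, where their adjusted p-values reached 0.0917 and 0.0892. Rasgrp3 then passed when Cre replicate 2 was missing (otherwise up to 0.137), and Dgka when Cre replicate 1 or EV replicate 3 was (otherwise up to 0.0812). None of 9 genes of the PI3 kinase branch and none of 9 of the protein kinase C and NF-kB branch passed in limma, with 3 and 1 at an unadjusted p below 0.05, against 16.1% of all genes.

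**Figure D4:**
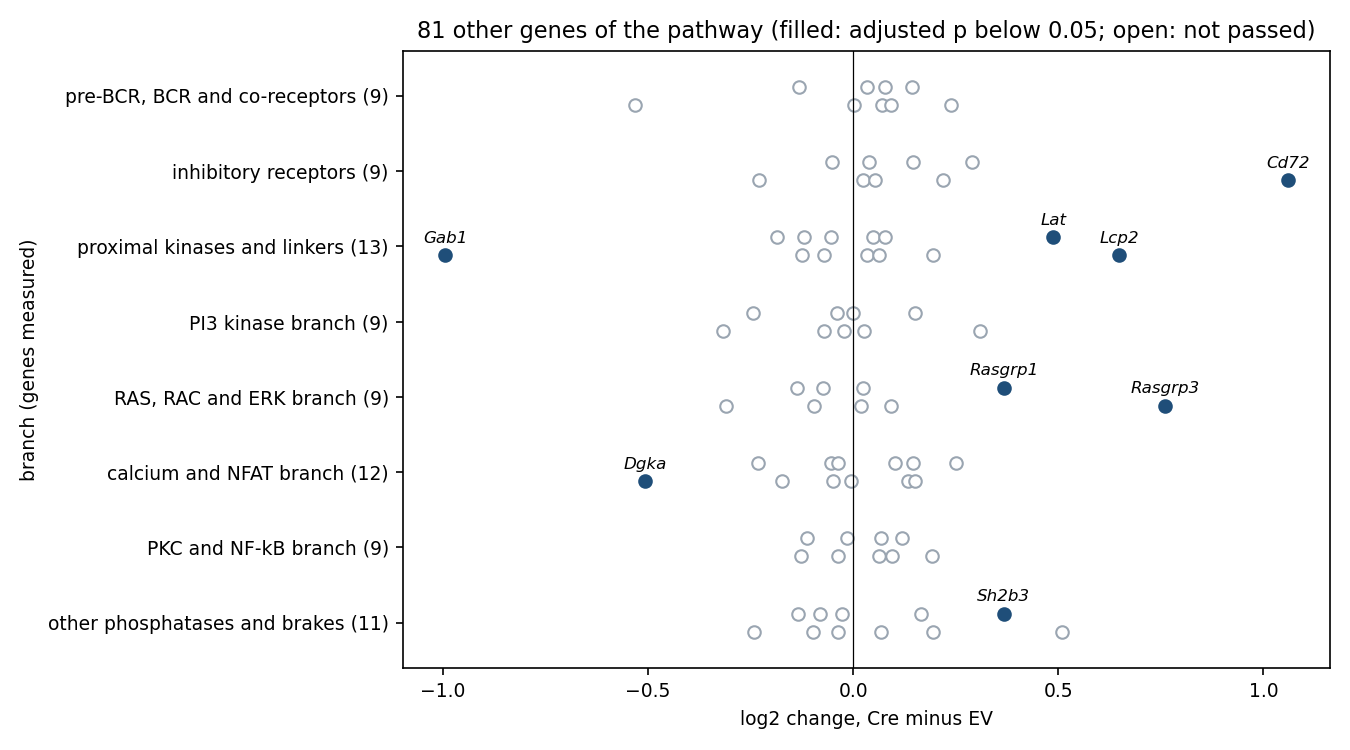
Changes of the 81 other pathway genes measured (x axis: log2 change, Cre minus EV; y axis: branch, with the number of genes measured). Filled and named points passed the threshold: Cd72, Lcp2, Lat, Rasgrp1, Rasgrp3 and Sh2b3 to the right, and Gab1 and Dgka to the left.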

How the data were processed

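Total RNA of 3 Cre and 3 EV samples was labelled with biotin and put on Affymetrix arrays of 1 colour, as the labels' protocols state. The deposited values are log2 levels per probe set that the authors made with RMA, per the submitters' processing notes, which name no version. RMA sets the arrays to one distribution before it summarises the probes of a set, which hides a change of all genes at once. The medians of the summarised values still differed slightly, from 5.22 to 5.27. Groups came from the sample titles.

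Of 25006 probe sets, 21467 had 1 gene symbol in the platform annotation, 1521 several and 2018 none; 21386 were matched by gene ID to RefSeq genes of GRCm38.p6. For the 931 genes with several probe sets the brightest on average was used. Genes were tested with limma 3.58.1 in R 4.3.3 (lmFit, eBayes, group as the factor), checked on simulated data. There 53% of the changes of 0.5 log2 and 91% of those of 1 log2 were recovered. A gene that did not pass may therefore still have changed. Python 3.11.15, pandas 2.3.3, scipy 1.17.1 and matplotlib 3.10.9 were used otherwise. Precision is limited by 3 arrays per group.

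All members are named, with array values where they passed or did not overlap; the other pathway genes are named where they passed. Ighm, Ptprc, Ubash3b, Ebf1, Cd79a, Pax5, Cxcl12, Blnk, Thy1 and the further array values were chosen after they were seen. The members, roles and lists were chosen with earlier results of these data known. Alternatives were a replicate block, trend and robust eBayes, centring on array medians, a second quantile normalization, dropping the dimmest 25% or 50% of genes, the mean of all probe sets, the dual members put in either class, and each array left out.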

Additional observations from a re-analysis of the deposited data

How the results depend on the processing

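The directions of the 5 members that rose, and of Ppp2r1a (-2.05), held in every setting tried. With the replicate block 425 genes, 2 members (Bank1 and Pik3ap1) and 5 other pathway genes were called, against 689, 5 and 8 without it. The lost pathway calls were Rasgrp1, Rasgrp3 and Sh2b3 (limma adjusted p 0.0895, 0.0883 and 0.0849). The labels do not say whether same-numbered arrays belong together. Over all genes their deviations from the group means had r of 0.009, -0.012 and 0.030, and not every array correlated best with its own number. With 3 arrays per group such correlations cannot show whether the arrays were paired, so both fits are given. With 1 array left out the counts were 362 to 424 genes, 2 to 3 members and 3 to 6 other pathway genes, and the activating median was -0.03 to 0.008. In these fits, where most calls of Dok3, Plcg2 and Vav2 were lost, their changes were 0.355 to 0.407, 0.338 to 0.406 and 0.297 to 0.386. Those of Rasgrp1 and Sh2b3 were 0.323 to 0.400 and 0.339 to 0.392. Leaving out the lowest 25% of genes gave 14 other pathway genes, leaving out the lowest 50% gave 1295 genes and 17 other pathway genes, and trend and robust eBayes 1558 genes and 20 other pathway genes. In those 3 settings 7 members were called, as Plcg1 and Vav3 passed as lower in Cre. The filters test fewer genes; otherwise the cause was not tested. Quantile normalization again, median centring and the mean of all probe sets called 5 members. The activating minus inhibitory median was -0.05 and -0.06 with the dual members counted as activating and as inhibitory. The dim levels of Fgr and Nfatc2 limit what can be seen of them.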
